A study of Mus musculus with 6 samples.

Results

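The keratin gene family was examined in PAM212 cells, which the labels call mouse keratinocytes, with and without overexpression of the microRNA miR-28-3p. Its members are all genes of the deposited expression table whose symbol begins with Krt followed by a digit, which leaves out the keratin-associated Krtap genes. This gave 53 of the 21936 genes in the table, of which 28 encode type I and 25 encode type II keratins. The data are polyadenylated RNA read counts from 6 libraries. In 3 libraries the cells had been infected with a lentivirus that carries the mouse miR-28-3p gene, and the other 3 are labelled as untreated PAM212 controls. All cells were grown in DMEM with 10% fetal bovine serum. Both groups are 1 cell line, and no source used here says if the controls had received an empty vector. The title speaks of keratinocytes and its design text of melanocytes, while every sample label names PAM212 and keratinocytes. The overexpression libraries held 14309898, 15650640 and 16383374 counted reads, and the control libraries 15385151, 14706283 and 15271490.

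Keratins are the intermediate filament proteins of epithelial cells. A filament is built from heterodimers of 1 acidic type I chain and 1 basic type II chain, and a keratin chain without a partner is unstable as a protein. Cells of simple epithelia use Krt8 and Krt7 with Krt18 and Krt19. The basal layer of the epidermis uses Krt5 with Krt14 and Krt15, its upper layers Krt1 and Krt2 with Krt10, stratified mucosa Krt4 with Krt13, and activated or wounded epidermis Krt6a and Krt6b with Krt16 and Krt17. In the mouse the genes sit in a cluster on chromosome 11 and another on chromosome 15, and 53 of 53 deposited gene coordinates equal those of the mouse build GRCm38, which is used here. MicroRNAs act mostly through pairing of their seed, bases 2 to 8, with sites in the 3′ UTR of a messenger RNA.

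Sequences are shown for the overexpressed microRNA and for the start regions of 5 genes named in the results. The mature microRNA is listed in RefSeq on GRCm38.p6 as mmu-miR-28a-3p at chr16:24827908-24827929 on the plus strand, and its seed is in capitals.
mmu-miR-28a-3p: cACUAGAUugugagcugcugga
The DNA letters that pair with this seed are ATCTAGT. Of the 52 keratin genes with an annotated 3′ UTR of at least 50 bases, 0 held this site, and 13 of those 52 were tested for a difference. Among all 11595 tested genes with such a UTR, 747 held it, which is 6.44%.

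RefSeq start regions, from 250 bases before to 50 bases after the start of transcription, were found for 36 of the 53 keratins. Krt15, Krt19 and Krt80, which changed strongly, were not among these 36. They were searched on both strands for a GC box (GGGCGG), a loose AP-1 pattern (TGANTCA, where N is any base) and a TATA box (TATAAA). The GC box was held by 2 of the 36 keratins and by 35.7% of all 32851 start regions in the table. The AP-1 pattern was held by 1 keratin and by 7.81% of all start regions. The TATA box was held by 19 keratins and by 13.6% of all start regions. Its place in the window was not limited, and the first match lay from -206 (Krt84) to 19 (Krt42) in bases from the start. A match describes the letters only and was not tested as a binding site, and no match says only that the letters are not in this window. Matches are in capitals, and the sequences are from GRCm38.p6. Krt7 and Krt8 are the abundant type II genes, Krt18 is the abundant type I gene beside Krt8, Krt13 was almost lost with overexpression, and Krt5 was silent in every library.
Krt7 (chr15:101412153-101412452, plus strand): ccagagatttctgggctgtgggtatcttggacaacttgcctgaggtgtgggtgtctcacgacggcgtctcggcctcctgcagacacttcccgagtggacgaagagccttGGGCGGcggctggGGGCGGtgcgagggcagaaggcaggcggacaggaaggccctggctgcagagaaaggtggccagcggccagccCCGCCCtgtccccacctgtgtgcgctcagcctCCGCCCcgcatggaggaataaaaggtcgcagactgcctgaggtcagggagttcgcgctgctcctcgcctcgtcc
Krt8 (chr15:102004293-102004592, minus strand): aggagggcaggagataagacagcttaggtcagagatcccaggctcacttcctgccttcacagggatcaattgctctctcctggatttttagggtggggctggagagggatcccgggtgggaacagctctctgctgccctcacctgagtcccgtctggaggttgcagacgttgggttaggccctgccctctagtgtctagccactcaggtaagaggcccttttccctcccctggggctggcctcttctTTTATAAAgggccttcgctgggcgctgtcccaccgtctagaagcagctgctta
Krt18 (chr15:102027966-102028265, plus strand): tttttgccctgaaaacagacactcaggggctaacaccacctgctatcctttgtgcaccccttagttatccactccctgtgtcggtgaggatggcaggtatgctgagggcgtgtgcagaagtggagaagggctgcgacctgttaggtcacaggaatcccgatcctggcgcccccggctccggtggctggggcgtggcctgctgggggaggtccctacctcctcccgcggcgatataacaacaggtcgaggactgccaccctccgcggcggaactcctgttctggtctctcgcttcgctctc
Krt13 (chr11:100121517-100121816, minus strand): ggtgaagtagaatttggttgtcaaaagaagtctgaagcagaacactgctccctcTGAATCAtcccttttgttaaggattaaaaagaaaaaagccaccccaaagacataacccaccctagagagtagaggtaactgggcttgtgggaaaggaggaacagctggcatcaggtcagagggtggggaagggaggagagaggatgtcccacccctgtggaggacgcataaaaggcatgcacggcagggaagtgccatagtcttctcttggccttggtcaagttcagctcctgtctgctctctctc
Krt5 (chr15:101712856-101713155, minus strand): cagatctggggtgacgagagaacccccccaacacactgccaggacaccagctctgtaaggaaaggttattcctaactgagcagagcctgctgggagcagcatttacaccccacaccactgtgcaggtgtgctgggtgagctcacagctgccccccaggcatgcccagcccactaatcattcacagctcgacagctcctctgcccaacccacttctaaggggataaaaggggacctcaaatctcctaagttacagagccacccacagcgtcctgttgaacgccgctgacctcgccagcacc
The Krt7 region holds 4 GC boxes on the 2 strands and no TATA box. The Krt8 region holds 1 stretch, TTTATAAA, that matches the TATA box on both strands, with the first match at -3 from the start. It holds no GC box. The Krt13 region holds 1 match to the loose AP-1 pattern, TGAATCA, with A as the open base. A second RefSeq start of Krt13 that is not shown holds 2 matches, both TGACTCA. The regions of Krt18 and Krt5 hold none of the 3 motifs.

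Keratin RNA was sparse across the family and was made almost wholly of 4 genes. Of the 53 members, 25 had 0 counts in all 6 libraries, 9 of type I and 16 of type II. Another 15 had between 1 and 67 counts in all, too few for the filter on low counts, and 13 were tested. Members with at least 1 count numbered 19 with overexpression and 28 in the controls. Among type I genes these were 12 with overexpression and 19 in the controls, and among type II genes 7 with overexpression and 9 in the controls. Detection with at least 10 counts summed over a group gave 9 members with overexpression and 18 in the controls. The 9 members at 0 with overexpression and with counts in the controls are 32.1% of the 28 seen in controls, and over all genes that share was 7.56%. The reverse case, with counts under overexpression and 0 in controls, held for 0 of the 19 keratins seen with overexpression. Over all genes it held for 690 of the 14575 seen there, a share too small for 0 of 19 to stand out. Of the 9 keratins at 0 with overexpression, Krt15 had 1005 counts and Krt23 had 156 counts in the controls. The others, Krt20, Krt26, Krt31, Krt33a, Krt33b, Krt76 and Krt79, had between 1 and 13. The shares over all genes were not matched for level.

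Of the 13 tested keratins, 2 were higher and 7 were lower with overexpression at an adjusted p under 0.05 (edgeR quasi-likelihood test, Benjamini-Hochberg over the 11809 genes tested). Such a call is common in these libraries, since 86.0% of all tested genes were called, 42.1% higher and 43.9% lower. The groups did not overlap, with every overexpression library above every control library, for 2 of the 13 keratins and for 42.2% of all tested genes. Every overexpression library lay below every control library for 7 of the 13 keratins and for 43.8% of all tested genes. A call together with a fall of at least 4-fold was seen for 5 of the 13 keratins and for 8.49% of all tested genes. Of those 5, Krt13, Krt15, Krt23 and Krt42 had at most 4 counts in any overexpression library and passed the filter only through the controls. That count and the type I median below thus draw on genes kept because they were high in the controls. The other tested type I genes lay between -2.27 for Krt19 and 0.36 for Krt14. By type, 1 type I gene was higher, 6 were lower and 2 were not called, and 1 type II gene was higher, 1 was lower and 2 were not called. The median log2 fold change was -2.27 over the 9 tested type I genes, 0.36 over the 4 tested type II genes and -0.03 over all tested genes, and the type I value is the same with the 2 genes at 0 under overexpression set at their bounds. In such bulk libraries fewer cells of a type and less RNA per cell cannot be told apart. Nothing in the labels names separate cultures, so p-values measure the spread between these libraries only.

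**Figure D1:**
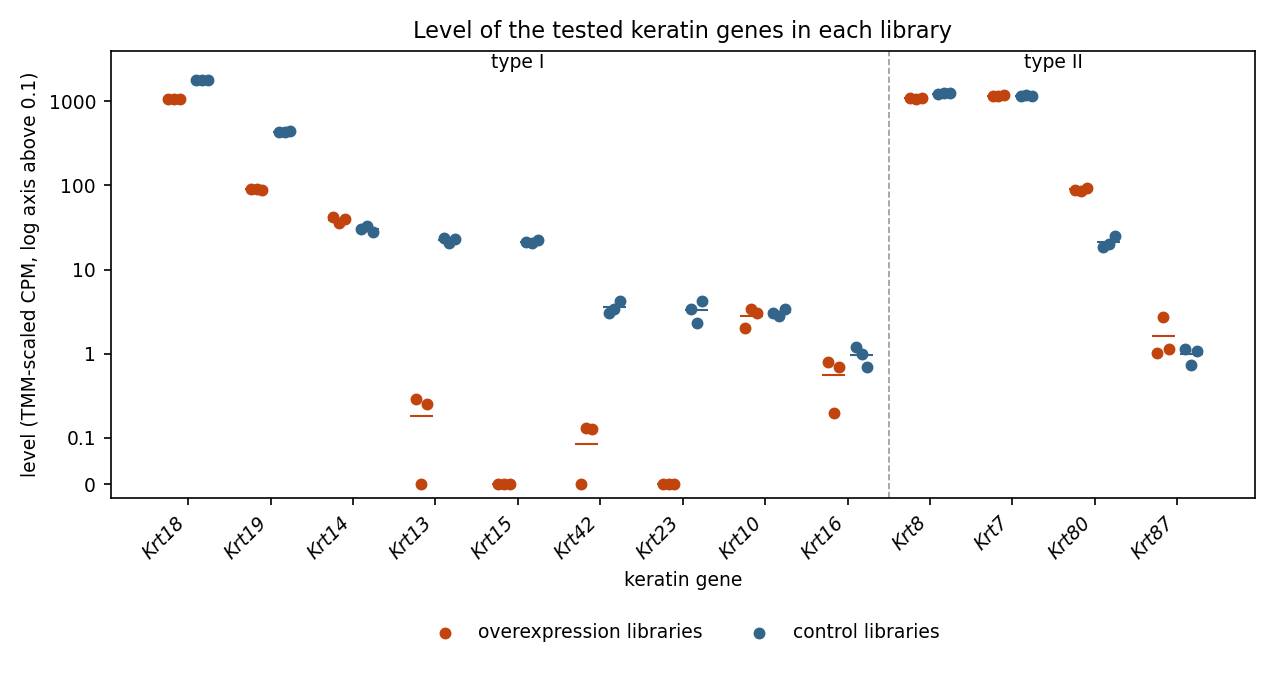
Level of the 13 tested keratin genes as CPM scaled with TMM, on an axis that is logarithmic above 0.1, with 1 point for each library and a bar at the mean of 3. Overexpression libraries are drawn left of control libraries for each gene. Krt18, Krt8 and Krt7 are the highest in both groups, between 1064.8 and 1803.2 CPM, and Krt15 and Krt23 lie at 0 in all 3 overexpression libraries.

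The simple-epithelium keratins Krt18, Krt8, Krt7 and Krt19 carried 97.5 ± 0.101% of all keratin FPKM with overexpression and 97.7 ± 0.0406% in the controls (mean ± SD, n = 3 each). FPKM, counts per gene length and per library size, is the scale for comparing genes with each other, and CPM, counts scaled to a common library total with TMM, is the scale for each gene across libraries. Among the 21936 genes of the table ranked by mean FPKM, Krt18 stood at rank 23 with overexpression and 25 in the controls. Krt8 stood at rank 37 with overexpression and 52 in the controls, and Krt7 stood at rank 205 with overexpression and 234 in the controls. Krt19 stood at rank 991 with overexpression and 170 in the controls.

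Krt18, the type I chain of simple epithelium, lies at chr15:102028180-102032027 on the plus strand, apart from all other type I genes. Its level was 1064.8, 1072.6 and 1072.6 CPM in the overexpression libraries, against 1801.5, 1803.2 and 1790.6 CPM in the control libraries. All overexpression libraries lay below all controls. The log2 fold change was -0.75 (SE 0.0194, adjusted p = 1.24e-41, edgeR), or 1.68-fold lower.

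Krt8, the type II partner of Krt18, lies at chr15:101996698-102004482 on the minus strand, and a gap of 23698 bases with no other gene of the table separates the pair. Its level was 1095.8, 1081.2 and 1088.2 CPM in the overexpression libraries, against 1212.2, 1251.6 and 1253.3 CPM in the controls. The groups did not overlap, but the difference was small, with a log2 fold change of -0.19 (SE 0.0204, adjusted p = 1.48e-12, edgeR). Of the 100-base stretches in its longest coding transcript, 16.9% also occur in the pseudogene Krt8-ps, so some of its reads may have been counted elsewhere or dropped. Krt7, the type II keratin of ducts and glands at chr15:101411043-101430313 on the plus strand, had 1154.8, 1155.4 and 1180.2 CPM with overexpression, against 1164.9, 1189.1 and 1167.0 CPM in the controls. These ranges overlapped and no difference was called (log2 fold change -0.01, SE 0.0202, adjusted p = 0.563).

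Krt19, the smallest type I keratin and a partner of Krt8 in simple and ductal epithelium, lies at chr11:100140810-100148665 on the minus strand. Its level was 90.2, 90.8 and 88.6 CPM in the overexpression libraries, against 426.5, 434.1 and 438.1 CPM in the controls. All overexpression libraries lay far below all controls. The log2 fold change was -2.27 (SE 0.0301, adjusted p = 5.33e-57), or 4.82-fold lower, the largest change among the 4 abundant keratins.

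The length of the genes behind the reads moved with the groups, at 6021.2 to 6049.7 bases per counted read with overexpression and 5090.8 to 5118.6 bases in the controls. The 13 tested keratins differ in this length, from 1437 bases for Krt18 to 7049 for Krt7, with 1958 for Krt8. Its part in the results was not tested beyond a fit that removes the trend of the fold change over gene length. In that fit the log2 fold change was -1.76 for Krt19 and -0.14 for Krt18, both still called lower. It turned to 0.30 for Krt8 (adjusted p = 1.6e-20) and became -0.29 for Krt7 (adjusted p = 5.87e-20), so the direction of Krt8 and the call of Krt7 depend on this choice. With upper quartile scaling, which moved the median of all genes to -0.26, Krt7 was also called lower at -0.24.

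Summed over each type, type I keratin RNA with overexpression was about level with type II, whereas in the controls it was nearly double. Type I genes summed to 790.2, 791.6 and 791.2 FPKM in the overexpression libraries, against 1585.9, 1584.3 and 1578.7 FPKM in the controls. Type II genes summed to 715.2, 707.7 and 713.8 FPKM with overexpression, against 815.8, 838.8 and 836.9 FPKM in the controls. Neither sum overlapped between groups, and the log2 difference was -1.0 for type I and -0.22 for type II, and on summed CPM it was -0.95 for type I and -0.06 for type II. The sums were not run with the length trend removed. In that setting Krt18, most of the type I sum, stood at -0.14 and Krt8, most of the type II sum, at 0.30. How far the size of the type I fall and the direction of the type II fall depend on it was not tested. Without Krt8 the type II genes summed to 174.2 ± 2.18 FPKM with overexpression and 177.3 ± 2.31 FPKM in the controls, with overlapping groups (log2 difference -0.03, exact permutation p = 0.2). On summed CPM they were higher by 0.07 without overlap, at an exact permutation p of 0.1. The ratio of type I to type II was 1.11 ± 0.00707 with overexpression and 1.91 ± 0.0327 in the controls (mean ± SD, n = 3 each), a log2 difference of -0.78. The 3 FPKM differences over all members, for type I, type II and their ratio, each had an exact two-sided permutation p of 0.1, the smallest that 3 libraries against 3 allow. Without the most abundant gene of each type, Krt18 and Krt8, the ratio was 0.404 ± 0.0114 with overexpression and 1.64 ± 0.0233 in the controls.

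**Figure D2:**
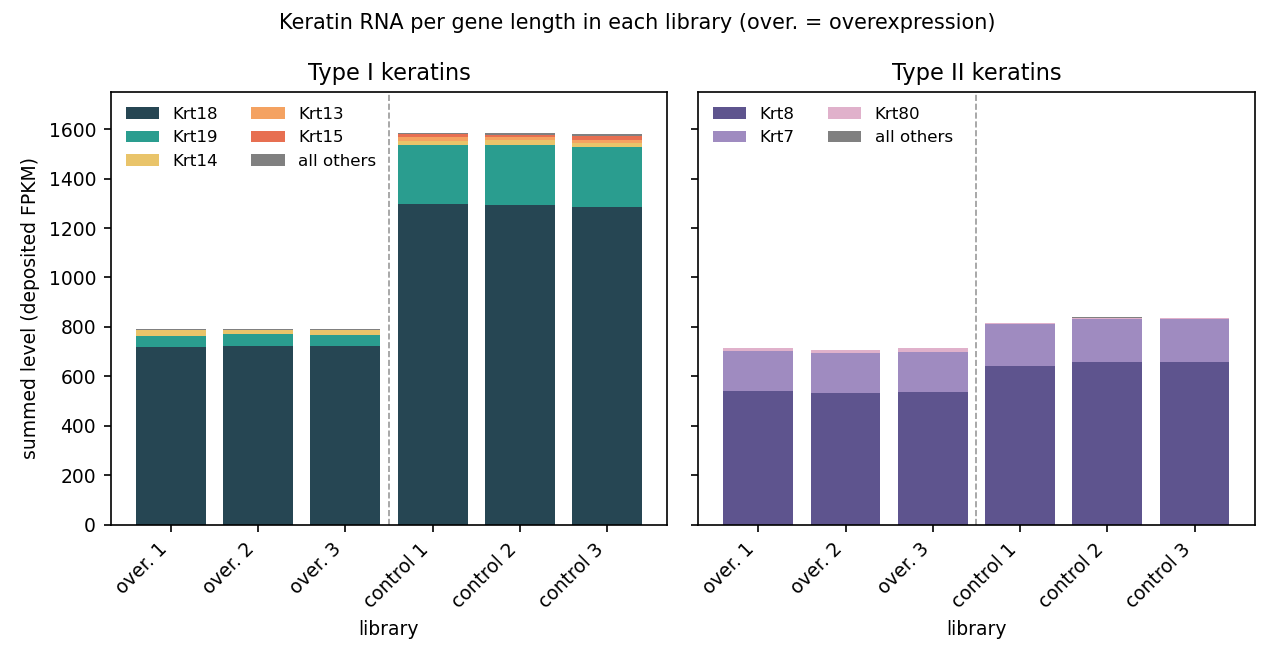
Summed FPKM of type I keratins (left) and type II keratins (right) in each library, with overexpression libraries left of control libraries and colours for single genes. Type I sums are near 791 FPKM with overexpression and near 1583 in the controls, with Krt18 and Krt19 as most of both, and type II sums average 712.2 FPKM with overexpression and 830.5 in the controls.

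The level of the ratio depends on the gene length used, while the direction of its change stayed the same with transcript lengths. The ratio of the sums was not run with the length trend removed. The deposited lengths count all exons of a gene, 7049 bases for Krt7 where its longest coding transcript has 4094, and 6393 for Krt80 where it has 3919. With the transcript lengths the type I to type II ratio was 0.957 ± 0.00617 with overexpression and 1.70 ± 0.0265 in the controls. All keratins together took 0.343 ± 0.00161% of the counted reads with overexpression and 0.491 ± 0.00291% in the controls.

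Pairing was examined for 13 textbook pairs, and 3 of them had both partners tested. Krt18 over Krt8 was 1.32, 1.35 and 1.34 in FPKM in the overexpression libraries, against 2.02, 1.96 and 1.95 in the controls, and the log2 difference was -0.56. Krt19 over Krt8 was 0.0869, 0.0887 and 0.0859 with overexpression, against 0.371, 0.366 and 0.369 in the controls, and the log2 difference was -2.08. Krt18 over Krt7 was 4.52, 4.55 and 4.46 with overexpression, against 7.59, 7.44 and 7.53 in the controls, and the log2 difference was -0.74. In each of these pairs the groups did not overlap, the type I partner was lower relative to the type II partner, and the exact two-sided permutation p was 0.1, also after adjustment over the 3 pairs. With the length trend removed the difference was -0.44 for Krt18 over Krt8 and -2.06 for Krt19 over Krt8, but it turned to 0.14 for Krt18 over Krt7.

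**Figure D3:**
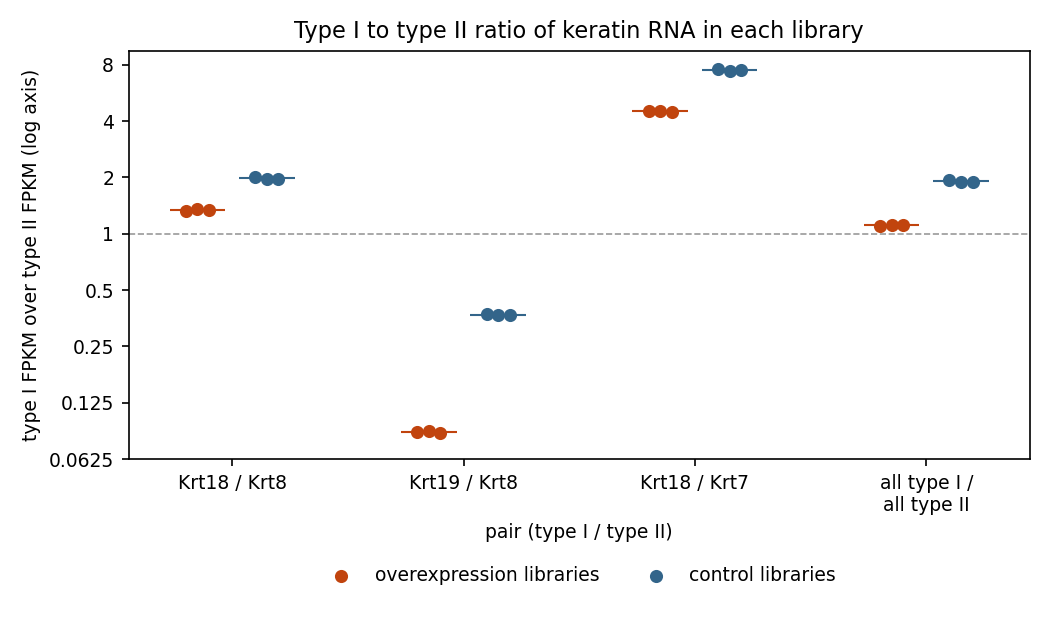
Ratio of type I to type II FPKM in each library, on a log2 axis, for the 3 pairs with both partners tested and for the sums of all type I and type II genes. Points are libraries, overexpression left of control, bars are means of 3, and the dashed line marks equal levels. All overexpression points lie below the control points of the same pair, a direction that turned for Krt18 over Krt7 when the length trend was removed.

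Most other pairs lacked their type II partner altogether. Krt5, Krt1, Krt2, Krt4, Krt6a and Krt6b had 0 counts in all 6 libraries, and these 6 genes are the type II partners in 9 of the 13 pairs. A count of 0 over a group allows up to 3 counts, which is 0.0669 CPM with overexpression and 0.0641 CPM in the controls. In 6 of the 9 pairs the type I partner was tested nevertheless, namely Krt14 and Krt15 without Krt5, Krt10 without Krt1 and Krt2, Krt16 without Krt6a, and Krt13 without Krt4. Krt17, the partner of Krt6b in hair follicle and wounded epidermis, had 3 counts with overexpression and 11 in the controls. In the last 2 of the 9 pairs the type I partner was also at 0, Krt12 of the cornea with Krt5 and Krt9 of palm and sole skin with Krt1. Krt20, a partner of Krt8 in gut and urothelium, had 0 counts with overexpression and 1, 7 and 5 in the control libraries. Shared sequence differs among the silent genes, since 2.38% of the 100-base stretches of Krt5 also occur in another gene, against 34.0% for Krt6a and 30.6% for Krt6b. It was 0 for Krt1, Krt2 and Krt4.

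Among these type I genes whose listed partner was at 0, Krt13 and Krt15 were nearly or wholly absent with overexpression, while Krt14 was present in every library. Other type II genes, Krt8 and Krt7, were abundant in every library, and which chains pair as proteins was not measured. Krt14, the basal keratin of stratified epithelium at chr11:100203162-100207548 on the minus strand, had 42.0, 35.8 and 39.4 CPM in the overexpression libraries, against 30.3, 33.1 and 28.1 CPM in the controls. The groups did not overlap, and the rise was 1.28-fold (log2 0.36, SE 0.0712, adjusted p = 8.25e-06, edgeR). It was 0.13 with upper quartile scaling, where it was not called (adjusted p = 0.0933), and 0.88 with the length trend removed.

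Krt15, a keratin of basal cells and of the stem cells of the hair follicle bulge, lies at chr11:100131758-100135928 on the minus strand. It had 0 counts in all 3 overexpression libraries, against 343, 310 and 352 counts, or 21.5, 20.4 and 22.4 CPM, in the controls. With 3 counts over the overexpression libraries as its floor, it was at least 320.9-fold lower (adjusted p = 2.9e-35, edgeR). None of its 100-base stretches occurs in another gene. Krt13, the type I keratin of stratified mucosa, lies next to it at chr11:100117327-100121566. Krt13 had 0.288, 0 and 0.253 CPM with overexpression, against 23.8, 20.8 and 22.9 CPM in the controls. Its 8 counts with overexpression stood against 1055 in the controls, so that the level in the controls was 126.3 times that with overexpression, with an exact 95% interval of 63.9 to 293.3 that covers counting error only (adjusted p = 8.38e-35). With the 3 genes summed, Krt13, Krt14 and Krt15 gave 21.6 ± 1.82 FPKM with overexpression and 43.2 ± 0.761 FPKM in the controls (mean ± SD, n = 3 each).

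Krt10, the type I keratin of the upper epidermal layers, averaged 2.81 ± 0.702 CPM with overexpression and 3.09 ± 0.33 CPM in the controls. Krt16, a keratin of activated epidermis, averaged 0.562 ± 0.319 CPM with overexpression and 0.961 ± 0.249 CPM in the controls. Both ranges overlapped and neither gene was called, with adjusted p of 0.603 for Krt10 and 0.112 for Krt16. Krt16, at a log2 fold change of -0.78, was called lower under 3 other settings, with upper quartile scaling (-1.0, adjusted p = 0.0391) and by limma on log2(FPKM + 1) and log2(FPKM + 5) at adjusted p of 0.0385 and 0.0384. The log2 fold change of Krt10 was -0.13 and turned to 0.32 with the length trend removed. Krt16 shares 24.3% of its 100-base stretches with Krt14 and a gene model, and its value is uncertain for that reason.

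Krt80 moved the other way from most members. This type II keratin, known in human tissues from differentiated epithelium, lies at chr15:101347444-101370162 on the minus strand, at the opposite end of the cluster from Krt8. Its level was 88.2, 87.0 and 94.3 CPM in the overexpression libraries, against 18.7, 20.1 and 25.2 CPM in the controls. All overexpression libraries lay above all controls, and the rise was 4.22-fold (log2 2.08, SE 0.0673, adjusted p = 2.04e-32, edgeR). It stayed called with the length trend removed, at 1.86, and with upper quartile scaling, at 1.85. Per length it remained a minor type II gene, at 13.6 ± 0.576 FPKM with overexpression and 3.44 ± 0.545 FPKM in the controls, against 538.0 ± 4.01 and 653.2 ± 10.9 FPKM for Krt8 in those groups.

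Of the other tested members, Krt23 and Krt42 fell. Krt23, a type I keratin induced in bile ducts of injured liver, had 0 counts in all overexpression libraries and 54, 35 and 67 counts in the controls, or 3.32 ± 0.976 CPM. It was at least 49.8-fold lower (adjusted p = 2.89e-15, edgeR). Krt42, a mouse type I keratin of the nail whose human counterpart is a pseudogene, averaged 0.0861 ± 0.0746 CPM with overexpression and 3.57 ± 0.631 CPM in the controls. With 4 counts under overexpression against 167, its level in the controls was 40.0 times that with overexpression, with an exact 95% interval of 15.3 to 148.5 (adjusted p = 5.88e-15). Krt87, a hair keratin of type II, averaged 1.62 ± 0.945 CPM with overexpression and 0.979 ± 0.221 CPM in the controls, and was not called (log2 0.72, adjusted p = 0.0638). It was called higher at 1.13 with the length trend removed, and its second overexpression library, with 41 counts, lay apart from the other two with 14 and 18. Without that library the log2 fold change was 0.14 (adjusted p = 0.772).

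The 15 members with counts under the filter included Krt88 with 6 counts with overexpression and 61 in the controls, Krt36 with 1 and 13 in those groups, and Krt222 with 2 and 14. Krt20, with 0 and 13, completes the members with more than 10 counts in the controls besides Krt17. When the filter was left out, Krt88, Krt20, Krt36 and Krt222 were called lower, at adjusted p from 1.21e-06 to 0.0463. In the authors' deposited table of differential expression 28 keratins are listed, 2 of them past an adjusted p of 0.05 as higher and 9 as lower, and 9 of these calls were made here in the same direction. The other calls in the authors' deposited table were Krt20 and Krt88.

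In chromosomal order the strongly lower type I genes did not stand alone on chromosome 11. Krt13, Krt15 and Krt19 are direct neighbours there, with gaps of 10192 bases between Krt13 and Krt15 and 4882 bases between Krt15 and Krt19. The next keratin past Krt19 is Krt9, at 0 in all libraries, and after it comes Krt14, which was higher. Krt42 closes the cluster, and Krt23 lies apart from them, nearer its other end. On chromosome 15 the genes with more than 10 counts in all sit at the ends. Krt80, Krt7, Krt87 and Krt88 are the first 4 genes of the cluster, and Krt8 and Krt18 the last of the 26. Of the 16 type II genes at 0 in all libraries, all lie between these ends. These positions are given as a description, since genes of 1 cluster are not independent of each other.

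**Figure D4:**
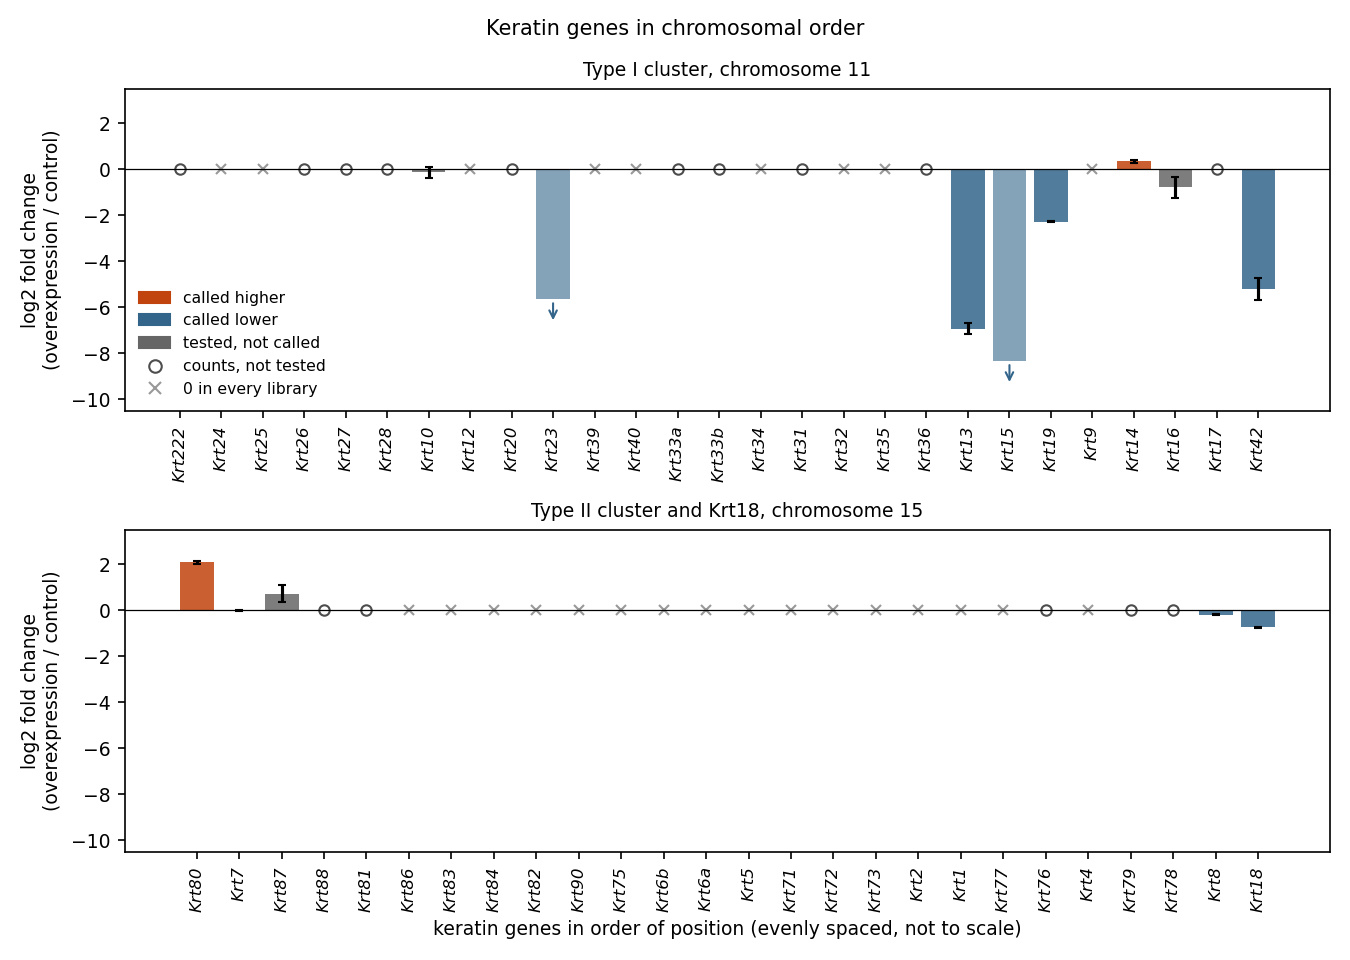
Log2 fold change of keratin genes in order of position along chromosome 11 (top) and chromosome 15 (bottom), evenly spaced, with error bars of 1 SE. Light bars with an arrow are bounds against a floor of 3 counts, open circles are genes with counts that were not tested, and crosses are genes at 0 in all 6 libraries. Krt13, Krt15 and Krt19 stand side by side as lower, while Krt80 and Krt14 are the genes called higher.

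Keratin filaments are tied to desmosomes and hemidesmosomes by linker proteins, and the list of 15 anchoring and binding proteins moved in both directions. Of its 12 tested members 6 were higher, 5 were lower and 1 was not called, with a median log2 fold change of 0.22. This split is near that of all tested genes, of which 42.1% were higher and 43.9% lower. Plec, the plectin that links filaments to hemidesmosomes, averaged 653.0 ± 2.46 CPM with overexpression and 180.8 ± 5.62 CPM in the controls (log2 1.85, adjusted p = 9.5e-56). Dst, the gene of the hemidesmosomal linker dystonin, averaged 475.3 ± 10.3 CPM with overexpression and 172.1 ± 4.9 CPM in the controls (log2 1.47, adjusted p = 2.86e-49). Jup, the desmosomal plakoglobin, averaged 145.8 ± 4.63 CPM with overexpression and 378.8 ± 10.5 CPM in the controls (log2 -1.38, adjusted p = 5.33e-46), and Pkp3, or plakophilin 3, was lower at -0.79 (adjusted p = 1.81e-30). The desmosomal genes did not move together, since Dsp, or desmoplakin, was higher at 0.55 (adjusted p = 1.15e-22) and Pkp2, or plakophilin 2, at 0.47 (adjusted p = 6.99e-11), both named after their values were seen. Plec and Dst are long genes, and with the length trend removed their values were 1.15 and 0.42. In that setting Dsp stood at 0.12 and Pkp2 at 0.37, against -1.6 for Jup and -0.64 for Pkp3. Filaggrin, its relative Flg2 and hornerin, the filament-bundling proteins of cornified epidermis, were at 0 in all libraries.

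Of the 18 epithelial transcription factors that were found, 16 could be tested, and 4 were higher, 11 were lower and 1 was not called, with a median of -0.91. Of the lower genes, Trp63 and Cebpa passed the filter only through the controls, and Grhl1, a higher gene, only through overexpression. These counts and the median thus draw in part on genes kept because they were high in 1 group. With minimum count 50 the list had 3 higher and 8 lower genes. Among all tested genes 42.1% were higher and 43.9% lower, and the list was not tested against these shares. The 4 with the smallest p all fell. Ehf, an ETS factor of epithelia, averaged 44.0 ± 3.35 CPM with overexpression and 117.3 ± 6.0 CPM in the controls (log2 -1.41, adjusted p = 5.16e-34). Its relative Elf3 was lower at -1.47 (adjusted p = 1.05e-25). Tfap2a, the AP-2 alpha factor of surface ectoderm, was lower at -0.98 (adjusted p = 4.26e-23), and Gata3, a factor of luminal and hair follicle epithelium, at -0.57 (adjusted p = 1.58e-17). With the length trend removed the values were -1.54 for Ehf, -1.05 for Elf3, -1.02 for Tfap2a and -0.48 for Gata3.

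The epithelial surface and identity list had 18 tested genes, of which 6 were higher, 11 were lower and 1 was not called, with a median of -0.48. For all tested genes the shares were 42.1% higher and 43.9% lower, and the list was not tested against them. Epcam, the adhesion protein of simple epithelia, averaged 314.9 ± 11.2 CPM with overexpression and 831.8 ± 7.55 CPM in the controls (log2 -1.40, adjusted p = 9.27e-51). The tight junction gene Cldn4 averaged 322.6 ± 4.53 CPM with overexpression and 812.7 ± 17.5 CPM in the controls (log2 -1.33, adjusted p = 3.69e-50). The protease inhibitor gene Spint2 was lower at -1.17 (adjusted p = 4.32e-43). Itga6, a subunit of the hemidesmosomal integrin, averaged 328.5 ± 2.61 CPM with overexpression and 138.9 ± 1.6 CPM in the controls (log2 1.24, adjusted p = 7.41e-44). Its partner subunit Itgb4, named after its value was seen, averaged 141.4 ± 3.49 CPM with overexpression and 197.2 ± 7.63 CPM in the controls, a change in the other direction (log2 -0.48, adjusted p = 5.57e-20). With the length trend removed the values were -0.97 for Epcam, -0.82 for Cldn4, -1.17 for Spint2, 0.84 for Itga6 and -0.75 for Itgb4.

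Among 17 other intermediate filament genes 8 were tested, and 6 were higher, 1 was lower and 1 was not called, with a median of 0.66. The lower gene, Bfsp1, passed the filter only through the controls. Over all tested genes 42.1% were higher and 43.9% lower, and so short a list was not tested against these shares. The leading genes were Lmnb1 and Lmnb2, which encode B-type lamins of the nucleus, Nes, the gene of nestin, and Iffo2, a little studied member of the superfamily. Lmnb1 averaged 212.4 ± 1.94 CPM with overexpression and 83.8 ± 2.19 CPM in the controls (log2 1.34, adjusted p = 4.97e-41). The log2 fold change was 0.95 for Nes, 1.2 for Iffo2 and 0.95 for Lmnb2. With upper quartile scaling the list had 4 higher and 2 lower genes.

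The label of the cells was set against marker genes. Of 8 keratinocyte markers 7 had at least 10 counts in a library and Krt5 was at 0. The summed level of the list was 595.4 to 603.7 CPM with overexpression and 394.5 to 413.3 CPM in the controls, mostly from Itga6 and Itgb4. Its members did not share 1 direction. Itga6 and Sfn, at log2 fold changes of 1.24 and 1.41, were behind the rise of the sum, and Krt14 and Col17a1 were also higher. Lower were Itgb4 at -0.48, Trp63 at -3.25 and Dsg3 at -3.24 (adjusted p = 1.3e-10 for Dsg3, edgeR). Dsg3 had 3, 3 and 7 counts in the overexpression libraries, against 54, 38 and 39 in the controls, a mean of 2.79 CPM there. Dsg3 and Trp63 passed the filter only through the controls. Trp63, the p63 factor that defines basal keratinocytes, had 0, 5 and 0 counts in the overexpression libraries, against 14, 17 and 22 in the controls. The keratin profile thus lacked Krt5 and held little Trp63, and simple-epithelium keratins led it in both groups. Of 8 melanocyte markers 4 reached 10 counts in a library, Tyr and Kit were at 0, and the sum was 7.33 to 8.22 CPM with overexpression and 8.05 to 9.78 CPM in the controls. The members behind this sum went in different directions. Tyrp1, an enzyme gene of pigment synthesis, had 7, 18 and 15 counts in the overexpression libraries, against 0 in each control, and Dct, another such gene, had 10, 8 and 13 counts, against 0 in each control. Both were under the filter and not tested, and with 3 counts as the floor of the control group they were at least 13.9-fold and 10.8-fold higher. Pmel was lower at a log2 fold change of -1.13 (adjusted p = 0.00285) and Mitf at -0.52 (adjusted p = 0.00323). Pmel passed the filter only through the controls. Of 8 fibroblast markers 2 reached 10 counts, with Lum and Thy1 at 0, and the sum was 16.2 to 17.1 CPM with overexpression and 43.3 to 52.0 CPM in the controls, almost all from Pdgfra. Of 8 leukocyte markers 2 reached 10 counts, Cd68 and Cd14, with Cd3e and Adgre1 at 0, and the sum was 16.0 to 20.1 CPM with overexpression and 38.6 to 39.6 CPM in the controls. Of 5 endothelial markers 0 reached 10 counts. The fibroblast and leukocyte sums moved with the lower keratins, and their part in these results was not tested.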

How the data were processed

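Counts per gene in 3 overexpression and 3 control libraries were deposited by the authors as raw counts, per the file headers. The same deposited table holds FPKM, which equal each count over the deposited gene length and column total to within rounding. The authors' deposited table of comparisons holds log2 fold changes with their adjusted p-values. The submitters' processing notes name HISAT2, HTSeq and DESeq without versions, and the build mm9. The gene coordinates of all 53 keratins are those of GRCm38. Neither the strand setting nor the handling of reads that paralogs share is stated in the sources used.

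Counts were fitted with edgeR 4.0.16 in R 4.3.3 (filterByExpr with minimum count 10, TMM, robust quasi-likelihood F test, Benjamini-Hochberg over 11809 genes, adjusted p under 0.05). The fit was tested on simulated data with few changed genes, balanced in direction, and no length trend. That test could not judge the scaling or the length effect in these libraries. The SE is the size of the log2 value over the square root of F. Summed levels and pair ratios used FPKM and an exact two-sided permutation test over libraries. Where a group held 0 counts of a gene, 3 counts over the group served as its floor, and ratios with 10 or fewer counts in a group have exact 95% intervals. Both cover counting error only. The biological coefficient of variation was 2.93%. Replicates were not copies of each other, since chi-square per degree of freedom between libraries of a group was 1.867 to 2.63.

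Keratins with a mean of at least 1 CPM in the higher group, or called, are named with values, and those of at least 5 CPM with the value in each library. From every list the genes with the smallest p, at most 4, are named, as are all genes of the pairs. A few list and marker genes are named beyond this rule, after their values were seen. The members, pairs and lists were chosen with earlier results of these data known. Alternatives were upper quartile scaling, DESeq2 1.42.0, limma 3.58.1 on log2(FPKM + 1), + 0.1 and + 5, no filter, minimum count 50, a replicate block, a test against 1.5-fold, removal of the length trend, and leaving out each library. Read statistics files were not used.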

Additional observations from a re-analysis of the deposited data

How the results depend on the processing

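The count test was repeated under 16 other settings. The calls of Krt80 as higher and of Krt13, Krt15, Krt18, Krt19, Krt23 and Krt42 as lower held in each of them, except that Krt23 and Krt42 were not tested with minimum count 50. Krt7 was called lower under 6 settings, with log2 values of -0.29 to -0.06, and Krt16 under 3, at -1.0 to -0.08. Against the 2 keratins called higher, upper quartile scaling and the test against 1.5-fold each gave 1, and removal of the length trend gave 4. Against the 7 called lower, no filter gave 11. Over all genes, against 4975 higher and 5184 lower, the test against 1.5-fold gave 2762 and 3185. In that test the lists had 3 lower genes (anchoring, against 5), 1 higher (transcription factors, against 4), and 2 higher and 7 lower (surface, against 6 and 11). For other intermediate filament genes, with 1 lower, upper quartile scaling gave 2, no filter 4 and minimum count 50 gave 0. Detection with at least 1 count in every library gave 11 keratins with overexpression (against 19). At least 10 counts over the group gave 9 with overexpression and 18 in the controls (against 28), and at least 1 CPM gave 8 with overexpression and 12 in the controls. Signs turned for Krt8 (0.30), Krt10 (0.32) and Krt18 over Krt7 (0.14) with the length trend removed, for Krt7 without a filter (0.01), and without overexpression replicate 1 for Krt10 (0.05) and Krt7 (0.00). The cause was not tested. Leaving out each library gave 2 to 3 keratins higher and 7 to 8 lower, with log2 values of -0.27 to 0.05 for Krt10 and -0.02 to 0.00 for Krt7. Krt87 was called without overexpression replicate 1 (0.96, adjusted p = 0.023) and without replicate 3 (0.94, adjusted p = 0.0284), and stood at 0.14 without replicate 2 (adjusted p = 0.772). Same-numbered libraries share only a number (correlation of deviations 0.010 to 0.024). With the replicate block 2 keratins were higher and 7 lower, the ratio of type I to type II stayed at -0.78, and no keratin call changed. Of the alternatives, the length-based ones for summed levels and pairs were chosen after seeing the data. Depth limits what can be said of the 15 keratins under the filter.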

Other observations

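Genes outside the naming rule are given here, chosen after their values were seen. The first 4 were all higher. In the lists they come from, 11 of 16 tested transcription factors and 11 of 18 tested surface genes were lower. Cdh1, the gene of E-cadherin, averaged 532.0 ± 10.6 CPM with overexpression and 381.8 ± 4.67 CPM in the controls (log2 0.48, adjusted p = 8.11e-27, edgeR), while Epcam and Cldn4 were lower in the same libraries. Sfn, the epithelial 14-3-3 protein stratifin, averaged 87.9 ± 3.73 CPM with overexpression and 33.1 ± 1.74 CPM in the controls (log2 1.41, adjusted p = 5.32e-32). Grhl2, a grainyhead factor of epithelia, was higher at 0.52 (adjusted p = 2.14e-13), and its relative Grhl1 averaged 3.59 ± 0.324 CPM with overexpression and 0.658 ± 0.313 CPM in the controls (log2 2.43, adjusted p = 5.06e-10). Each of these 4 genes was also called higher with upper quartile scaling and with the length trend removed, where Grhl2 stood at 0.14. Grhl1 passed the filter only through the overexpression libraries.

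Vim, the intermediate filament gene of mesenchymal cells and of many cultured lines, averaged 1484.6 ± 1.34 CPM with overexpression and 1406.7 ± 39.6 CPM in the controls. Its log2 fold change of 0.08 (adjusted p = 3.97e-04) turned to -0.15 with upper quartile scaling (adjusted p = 2.51e-09).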
